A study of Mus musculus with 54 samples.

Results

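Hlf, Mecom, Mllt3, Pdzk1ip1, Nfix, Prdm16 and Runx1t1 are genes known from work on haematopoietic stem cells, and each was found by its symbol as a row of the deposited count table, 7 of 23154 rows. Single cells of C57BL/6 mice aged 8 to 10 weeks had been profiled at the 3′ ends of their mRNA by a modified Smart-seq2 protocol, a plate-based method that makes full-length cDNA of each cell, in 54 libraries. Transplanted cells had been collected on day 1 (61 cells in 3 libraries), day 3 (125 cells in 3 libraries), day 5 (336 cells in 7 libraries) and day 7 (389 cells in 10 libraries), and 120 more came from 3 libraries that pooled collection days. Steady-state cells came from 28 sorting gates. These comprised 10 gates of mature cells (362 cells), 4 of committed progenitors (95 cells in 4 libraries), 9 of multipotent progenitors, called iMPP in the labels (508 cells in 17 libraries), and 5 of haematopoietic stem cells, called iHSC (305 cells in 12 libraries).

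No mutant allele or drug was named for any group. The labelled tissue was bone marrow, spleen or both for transplanted cells. The cells that were transplanted, the recipients and the number of animals were not given in the sources used here. The library was therefore the replicate, so that p-values reflect only how far libraries differ, which may be technical. Labels of the iHSC gates were checked with 5 stem cell markers (Procr, Fgd5, Slamf1, Ctnnal1 and Esam). Their summed level was 0 to 364 CPM (counts per 1000000 counts, median 61.4) in the iMPP libraries and 35.3 to 597 CPM (median 317) in the iHSC libraries, with 2 to 5 of 5 detected in each iHSC library. Annotated cells carried 20013 to 1943315 counts each. Levels below are CPM of the summed counts of a library, and shares of cells with a count were taken after each cell was thinned to 20000 counts, because the median count per cell differed between groups (339200 in iMPP and 121266 in iHSC cells). A lower summed level cannot tell fewer expressing cells from less RNA per cell, so both measures are given. Counts came from 3′ ends and were not scaled to length, so levels were compared within a gene and not between genes.

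Haematopoietic stem cells renew themselves for life and give rise to multipotent progenitors, which lose self-renewal and then commit to single lineages. A network of transcription factors keeps them in that state, and several members of it are also targets of chromosome rearrangements in leukaemia. Hlf is a PAR bZIP transcription factor that binds DNA as a dimer and is widely used as a marker of long-term repopulating cells. Mecom (which encodes Evi1 and the longer MDS1-EVI1) and Prdm16 are related zinc finger proteins of the PRDM family, and loss of either impairs stem cell maintenance in mice. Mllt3 (AF9) is a YEATS domain reader of acetylated histones that recruits the elongation machinery and DOT1L, and it supports self-renewal of human stem cells. Nfix is a nuclear factor I transcription factor needed for the survival of transplanted mouse stem and progenitor cells. Runx1t1 (ETO) is a corepressor and the fusion partner of RUNX1 in acute myeloid leukaemia. Pdzk1ip1 (MAP17) is a small membrane protein with a PDZ-binding tail and the only member of the 7 that is not a nuclear regulator.

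In the GENCODE annotation of GRCm38, the build named in the submitters' processing notes as mm10, Hlf lies at chr11:90336536-90390895 on the minus strand and Mecom at chr3:29951296-30548008 on the minus strand. Chromosome 4 holds Runx1t1 (chr4:13743436-13893649, plus strand), Mllt3 (chr4:87769925-88033364, minus strand), Pdzk1ip1 (chr4:115088708-115093899, plus strand) and Prdm16 (chr4:154316125-154636873, minus strand). The protein-coding gene next below Pdzk1ip1 is Tal1, which encodes a master regulator of blood formation. Nfix (chr8:84699876-84800344, minus strand) contains Lyl1, a relative of Tal1, on the opposite strand, but the exons of the pair share only 4 bases. Whether counting used strand was not stated, so reads in those 4 bases cannot be told apart.

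Promoter windows of 300 bases (250 before and 50 after an annotated start) were taken from RefSeq on GRCm38.p6, where 6 of the 7 members matched with 11 windows. Each was searched on both strands for the following motifs, none of which holds another: the GATA factor motif with the letters AGATAA, the ETS motif with CCGGAAG, the RUNX motif with TGTGGT, the E-box with CAGCTG, the nuclear factor I core with TTGGCA, the cyclic AMP response element with TGACGTCA, and the GC box with GGGCGG. The windows of Hlf and Pdzk1ip1 are shown because these genes gave the clearest differences by day, with motif matches in capitals, 5′ to 3′ on the strand of the gene.
Hlf, chr11:90390868-90391167, minus strand: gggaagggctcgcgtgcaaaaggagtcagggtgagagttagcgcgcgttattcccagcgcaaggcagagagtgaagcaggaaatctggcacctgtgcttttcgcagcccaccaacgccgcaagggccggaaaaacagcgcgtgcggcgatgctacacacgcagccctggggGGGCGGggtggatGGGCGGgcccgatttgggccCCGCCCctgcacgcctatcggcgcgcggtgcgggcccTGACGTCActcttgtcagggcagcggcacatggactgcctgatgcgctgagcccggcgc
Pdzk1ip1, chr4:115088458-115088757, plus strand: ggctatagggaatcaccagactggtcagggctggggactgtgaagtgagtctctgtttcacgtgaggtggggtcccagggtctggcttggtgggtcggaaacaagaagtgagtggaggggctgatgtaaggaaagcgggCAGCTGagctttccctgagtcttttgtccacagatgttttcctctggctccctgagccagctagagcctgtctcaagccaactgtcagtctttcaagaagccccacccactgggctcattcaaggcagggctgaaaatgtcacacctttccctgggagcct
The Hlf window holds 3 GC boxes, a match found in 35.7% of 32851 such windows, and 1 cyclic AMP response element, found in 1.79% of them. The Pdzk1ip1 window holds 1 E-box, found in 16.3%. It has 3 CpG dinucleotides, against 30 in the Hlf window and a median of 7 over all windows. A match describes the letters and is not evidence of binding.
The windows of the related genes Mecom and Prdm16 are shown because both contain the same run of 24 bases, in capitals, 27 and 10 bases after their starts.
Mecom, chr3:30509710-30510009, minus strand: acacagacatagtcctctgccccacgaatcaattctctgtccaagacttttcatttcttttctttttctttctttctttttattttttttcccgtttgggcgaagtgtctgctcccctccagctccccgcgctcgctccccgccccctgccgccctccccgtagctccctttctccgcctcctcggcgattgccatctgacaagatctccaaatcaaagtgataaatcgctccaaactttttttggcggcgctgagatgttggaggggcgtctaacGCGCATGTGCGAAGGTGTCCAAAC
Prdm16, chr4:154636824-154637123, minus strand: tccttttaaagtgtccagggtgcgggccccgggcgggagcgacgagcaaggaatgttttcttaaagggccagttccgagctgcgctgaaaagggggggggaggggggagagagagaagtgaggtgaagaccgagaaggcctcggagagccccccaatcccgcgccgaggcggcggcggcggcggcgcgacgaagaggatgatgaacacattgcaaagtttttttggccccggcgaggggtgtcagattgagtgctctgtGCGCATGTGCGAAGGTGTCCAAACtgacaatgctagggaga
Over the 47 pairs of windows of different members, the next longest shared run had 13 bases and the median was 9.

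In steady state, 6 of the 7 members were lower in iMPP than in iHSC cells, in edgeR's quasi-likelihood test with Benjamini-Hochberg adjustment over 10461 genes, of which 4.72% were called lower. In the other direction 5.05% were called, and 9.77% in all. The median log2 fold change was -2.21 over the members and -0.12 over all genes tested. With RLE scaling factors the calls over all genes were 681 lower and 434 higher, against 494 lower and 528 higher with the TMM factors used here.

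Mecom, the zinc finger factor, showed 0 to 53.8 CPM (median 10.1) in the 17 iMPP libraries and 2.4 to 239 CPM (median 86.3) in the 12 iHSC libraries. The groups overlapped, with 3 iMPP libraries below the lowest iHSC library, and the fitted log2 fold change was -2.56 ± 0.55 (SE, adjusted p = 0.0019). Its share of cells with a count was 14.5% ± 11.6 in iMPP and 36.3% ± 18.1 in iHSC libraries (SD, n = 17 and 12). Mllt3, the chromatin reader, had 4.96 to 300 CPM (median 22.7) in iMPP and 91 to 530 CPM (median 284) in iHSC libraries. Of the iMPP libraries, 14 were below every iHSC library, and the log2 fold change was -2.75 ± 0.45 (adjusted p = 5.4e-05). Pdzk1ip1 ranged from 0.357 to 449 CPM (median 102) in iMPP and from 338 to 850 CPM (median 489) in iHSC libraries. Here 16 of 17 iMPP libraries lay below all iHSC libraries (log2 fold change -2.21 ± 0.47, adjusted p = 0.00171). Hlf had 4.52 to 301 CPM (median 95) in iMPP and 106 to 646 CPM (median 385) in iHSC libraries, and 10 iMPP libraries were below the lowest iHSC library. Its log2 fold change was -1.72 ± 0.38 (adjusted p = 0.00226), and 56.4% ± 27.7 of iMPP and 75.9% ± 16.7 of iHSC cells had a count.

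Runx1t1 was rare. It had 0 to 7.26 CPM (median 0) in iMPP and 0 to 58.2 CPM (median 20.3) in iHSC libraries, and 0.726% ± 1.7 of iMPP and 8.72% ± 5.71 of iHSC cells had a count (log2 fold change -4.33 ± 1.04, adjusted p = 0.00501). Nfix showed the smallest of the called differences. It had 40.7 to 136 CPM (median 92.0) in iMPP and 31.7 to 194 CPM (median 128) in iHSC libraries, ranges that overlapped almost fully (log2 fold change -0.67 ± 0.21, adjusted p = 0.0384). The Nfix call was lost when sums needed at least 10 cells (adjusted p = 0.054) and without L4, a library whose label does not name the EryB cells its annotation holds (adjusted p = 0.0648). Prdm16 did not pass, with 0 to 39.2 CPM (median 3.46) in iMPP and 0 to 58.3 CPM (median 26.5) in iHSC libraries (log2 fold change -1.58 ± 0.75, adjusted p = 0.19). Of the 29 sums, 10 came from the 5 libraries that held both iMPP and iHSC cells. With the library as a block over those 10 sums, the members' fold changes kept their sign, and edgeR called Hlf alone (-1.67 ± 0.28, adjusted p = 0.000594), with 4 of 7 at an unadjusted p under 0.05. Over all genes, 1064 of 10031 had an unadjusted p under 0.05 in this fit. Pdzk1ip1 (-1.26 ± 0.35, adjusted p = 0.0685), Mllt3 (-1.26 ± 0.44, adjusted p = 0.22), Runx1t1 (-4.27 ± 1.42, adjusted p = 0.18), Mecom (-1.56 ± 0.76, adjusted p = 0.473) and Nfix (-0.38 ± 0.45, adjusted p = 0.859) did not pass, and 119 of 10031 genes did. Beside these results, 9 neutrophil markers summed to 360 to 36906 CPM (median 3642) in iMPP and 388 to 27458 CPM (median 718) in iHSC libraries, with 5 to 9 of 9 detected in iMPP libraries. Their part in the result was not tested.

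In the 4 libraries of committed progenitors, 5 of the 7 members were lower than in iHSC libraries (1.89% of 10920 genes were called lower, 2.82% in either direction). The median log2 fold change was -5.07 over the members and -0.12 over all genes. Hlf had 1.1 to 9.67 CPM (median 2.36) in the committed libraries, against 106 to 646 CPM in iHSC libraries, without overlap (log2 fold change -6.51 ± 0.70, adjusted p = 1.73e-06). Mecom had 0 to 0.451 CPM in committed and 2.4 to 239 CPM in iHSC libraries, also without overlap (log2 fold change -8.94 ± 1.29, adjusted p = 0.00016). Overlap was not computed for genes other than the members. Pdzk1ip1 had 0 to 72.2 CPM in committed and 338 to 850 CPM in iHSC libraries (log2 fold change -4.35 ± 0.90, adjusted p = 0.00596), and its highest committed library was the one of megakaryocyte-erythrocyte progenitors (MEP). Runx1t1 had 0 of 48990773 counts in the committed libraries, against 1172 of 49316605 counts in the iHSC libraries. With a floor of 3 counts over the committed group, that is at least 388-fold lower (adjusted p = 0.00619), although iHSC libraries ranged from 0 to 58.2 CPM. Mllt3 was the exception in size, with 30.5 to 144 CPM in committed and 91 to 530 CPM in iHSC libraries, which overlapped (log2 fold change -2.03 ± 0.49, adjusted p = 0.019). This call was lost without the committed cells of L15 (MEP), L17 (CMP and GMP) or L28 (CLP), with adjusted p between 0.066 and 0.102. With the committed cells of 1 library left out in turn the other 4 stayed called, but the values moved. Pdzk1ip1 ran from -6.55 (without L15) to -3.82 (without L28), Mecom from -10.28 (without L15) to -8.20 (without L17) and Hlf from -7.34 (without L28) to -6.15 (without L15). Nfix (45.9 ± 32.5 CPM in committed and 128 ± 42.9 CPM in iHSC libraries, SD, n = 4 and 12, adjusted p = 0.104) and Prdm16 (0.603 ± 0.59 CPM in committed and 24.6 ± 19.3 CPM in iHSC libraries, adjusted p = 0.0531) did not pass. Of the neutrophil markers, 9 of 9 were detected in every committed library, at a summed 281 to 10874 CPM (median 9682), against 388 to 27458 CPM in iHSC libraries, and their part was not tested. L15 held both MEP and iHSC cells, so its sums are not independent, and the edgeR fit did not take this into account.

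**Figure D1:**
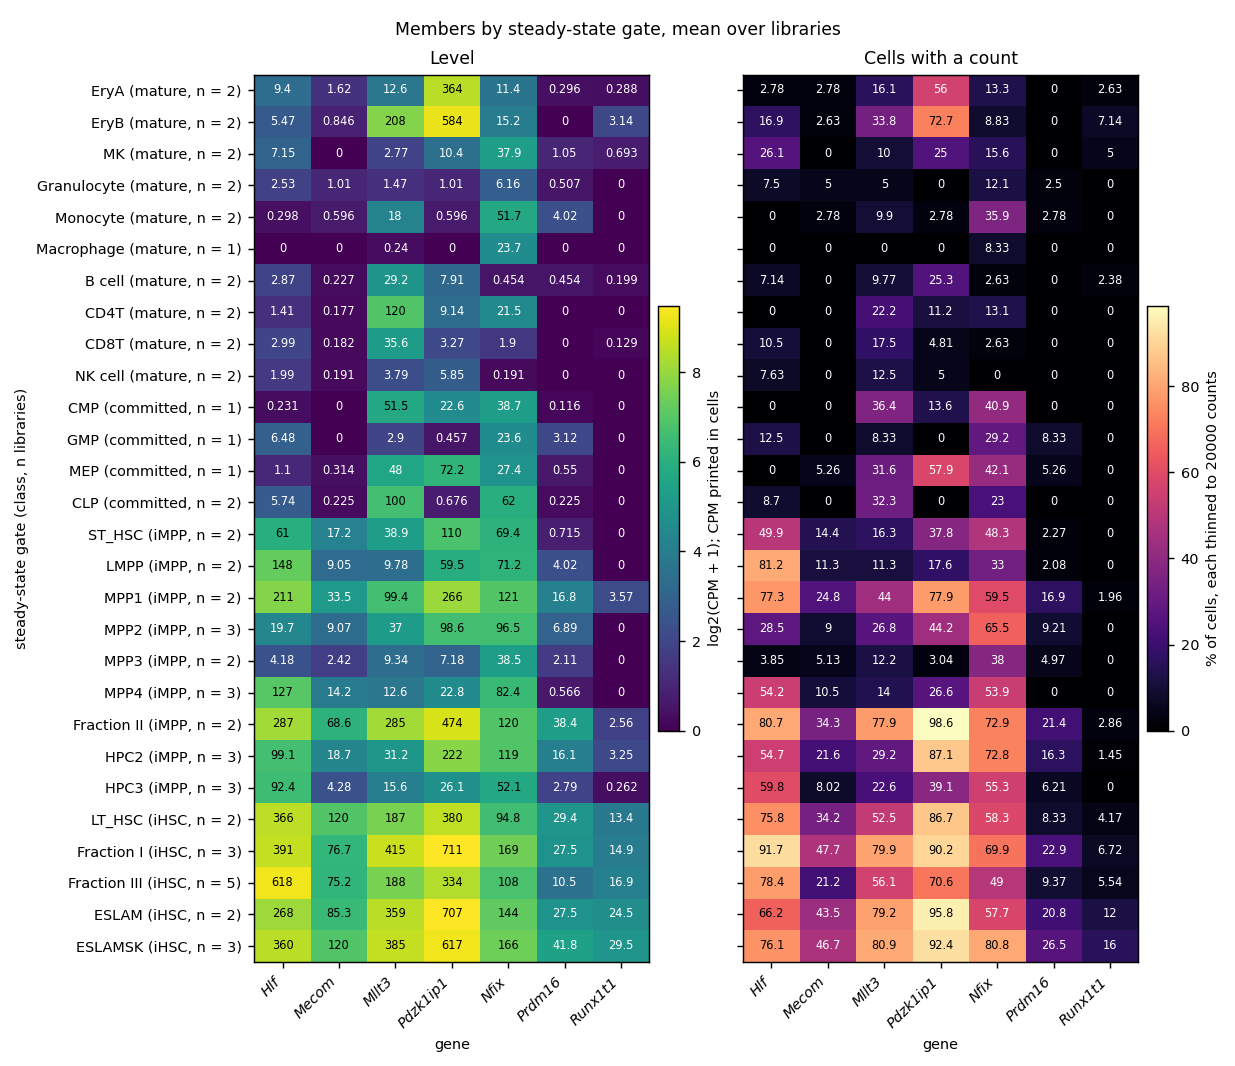
Mean over libraries of the level (left, colour log2(CPM + 1), CPM printed) and of the share of cells with a count after thinning to 20000 counts (right, percent) of the 7 members in each of 28 steady-state gates, mature cells at the top and iHSC gates at the bottom. Fraction II and MPP1 stand out among the iMPP gates by high values, MPP3 by low ones, and EryA and EryB by Pdzk1ip1.

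The 9 iMPP gates did not share one pattern. Hlf (adjusted p = 0.00278), Mllt3 (0.000655) and Pdzk1ip1 (0.00214) differed between gates in edgeR's quasi-likelihood F test over 22 sums, 3 of 7 members, where 4.46% of 12629 genes did. With 17 iMPP libraries, some of the 22 sums shared a library and are not independent, and no fit with the library as a block was run. Fraction II had the highest mean level of the iMPP gates in Hlf, Mecom, Mllt3, Pdzk1ip1 and Prdm16. Its 2 libraries had 287 and 287 CPM of Hlf, 271 and 300 CPM of Mllt3, and 500 and 449 CPM of Pdzk1ip1, each within the range of the iHSC libraries. MPP1, the progenitor gate closest to stem cells in the usual scheme, followed with 301 and 121 CPM of Hlf and 281 and 251 CPM of Pdzk1ip1. MPP3, the granulocyte-macrophage biased gate, was at the other end. Its 2 libraries had 4.52 and 3.84 CPM of Hlf and 4.6 and 9.76 CPM of Pdzk1ip1. Without Fraction II, Hlf (adjusted p = 0.00981) and Pdzk1ip1 (0.0169) still passed and Mllt3 (0.182) did not.

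Hlf and Pdzk1ip1 were ordered differently over some of the other gates. The gates LMPP, MPP4 and HPC3 were compared with MPP2 within each gene, and ST_HSC and HPC2 were left out. LMPP had 117 and 179 CPM of Hlf, MPP4 had 64.8, 105 and 212 CPM, and HPC3 had 30.8, 95 and 151 CPM. In the same libraries Pdzk1ip1 was at 17.4 and 102 CPM in LMPP, at 14, 17.2 and 37.2 CPM in MPP4 and at 10.5, 0.357 and 67.5 CPM in HPC3. MPP2, the megakaryocyte-erythroid biased gate, had 26.6, 22.1 and 10.4 CPM of Hlf and 105, 136 and 54.2 CPM of Pdzk1ip1. All 3 MPP2 libraries were below all LMPP, MPP4 and HPC3 libraries in Hlf, 1 of them narrowly, at 26.6 CPM against 30.8 CPM in HPC3. In Pdzk1ip1, 2 of 3 were above all of them, 1 of these narrowly, at 105 CPM in MPP2 against 102 CPM in LMPP. Set against the 106 CPM of the lowest iHSC library, 4 of the 8 LMPP, MPP4 and HPC3 libraries were lower in Hlf. Nfix varied least over the iMPP gates, between mean levels of 38.5 CPM in MPP3 and 121 CPM in MPP1, and did not pass (adjusted p = 0.286). Runx1t1 was at 0 counts in every library of ST_HSC, LMPP, MPP2, MPP3 and MPP4, with floors of 3 counts between 0.078 and 0.285 CPM. The highest mean among the iMPP gates was 3.57 CPM, in MPP1, and Fraction II had 2.56 CPM, below the 13.4 to 29.5 CPM of the iHSC gate means.

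Between the 5 iHSC gates no member passed, and 0.0588% of 11908 genes did (edgeR, 15 sums). At an unadjusted p under 0.05 the count was also 0 of 7 members, beside 814 of 11908 genes, and DESeq2 called 0 of the members. With 12 iHSC libraries, some of the 15 sums shared a library here too, and no fit with the library as a block was run. Mean Hlf levels ran from 268 CPM in ESLAM through 360 CPM in ESLAMSK, 366 CPM in LT_HSC and 391 CPM in Fraction I to 618 CPM in Fraction III, and neighbours in this order did not differ beyond their spread between libraries. The highest mean rests on a Fraction III library of 6 cells with 1380 CPM, while the other 4 had 287 to 591 CPM. By share of cells, Hlf was seen in 66.2% of ESLAM cells and in 91.7% of Fraction I cells. Pdzk1ip1 had its lowest mean in Fraction III, at 334 ± 122 CPM (SD, n = 5), and its highest in Fraction I, at 711 ± 150 CPM (SD, n = 3).

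In the 10 mature gates most members were low, with exceptions. Hlf averaged 0 to 9.4 CPM and Mecom 0 to 1.62 CPM over these gates. Pdzk1ip1 was at 364 CPM in EryA and 584 CPM in EryB, 2 gates of erythroid precursors by name, within the 334 to 711 CPM of the iHSC gate means, and was seen in 56.0% and 72.7% of their cells. It averaged 0 to 10.4 CPM in the other mature gates. Erythroid markers (6 of 8 detected) summed to 2061 to 4186 CPM in the 2 EryA and 2174 to 3809 CPM in the 2 EryB libraries. The 9 neutrophil markers summed to 77010 to 209587 CPM in EryA and 87988 to 175095 CPM in EryB, against 121888 to 178091 CPM in the Granulocyte gate. Mast cell and basophil markers reached 5835 CPM in EryA. The part of other cells in these levels was not tested. The EryB libraries had 535 CPM of Pdzk1ip1 in L4, whose label does not name EryB, and 632 CPM in L42. Mllt3 averaged 208 ± 241 CPM in EryB (SD, n = 2) and 120 ± 44.3 CPM in CD4T (CD4+ T cells, n = 2). Nfix averaged 51.7 ± 46.1 CPM in monocytes (n = 2), where 35.9% of cells had a count. As a background for the shares, Hlf had a count in 7.63% of NK cells at a median of 87872 counts per cell, and the 5.98% of committed cells with Hlf is not above it.

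Genes whose mean levels over the 28 gates were most like a member's are given as a description, with Pearson's r of log2(CPM + 1) over gates that share libraries and depth. Hlf was most like Hoxa5 (0.97), Myct1 (0.96) and Col4a1 (0.96), and Mecom most like Nkx2-3 (0.98), Col4a2 (0.97) and Hoxa5 (0.97). Runx1t1 was nearest to Wfdc2 (0.93), Prdm16 to Gucy1a3 (0.91), Nfix to Tbc1d9b (0.93), Pdzk1ip1 to Art4 (0.92) and Mllt3 to Tarbp2 (0.78). Among the members themselves the highest value was that of Hlf with Mecom (0.94), followed by Mecom with Prdm16 (0.88). The lowest was that of Mllt3 with Nfix (0.48).

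**Figure D2:**
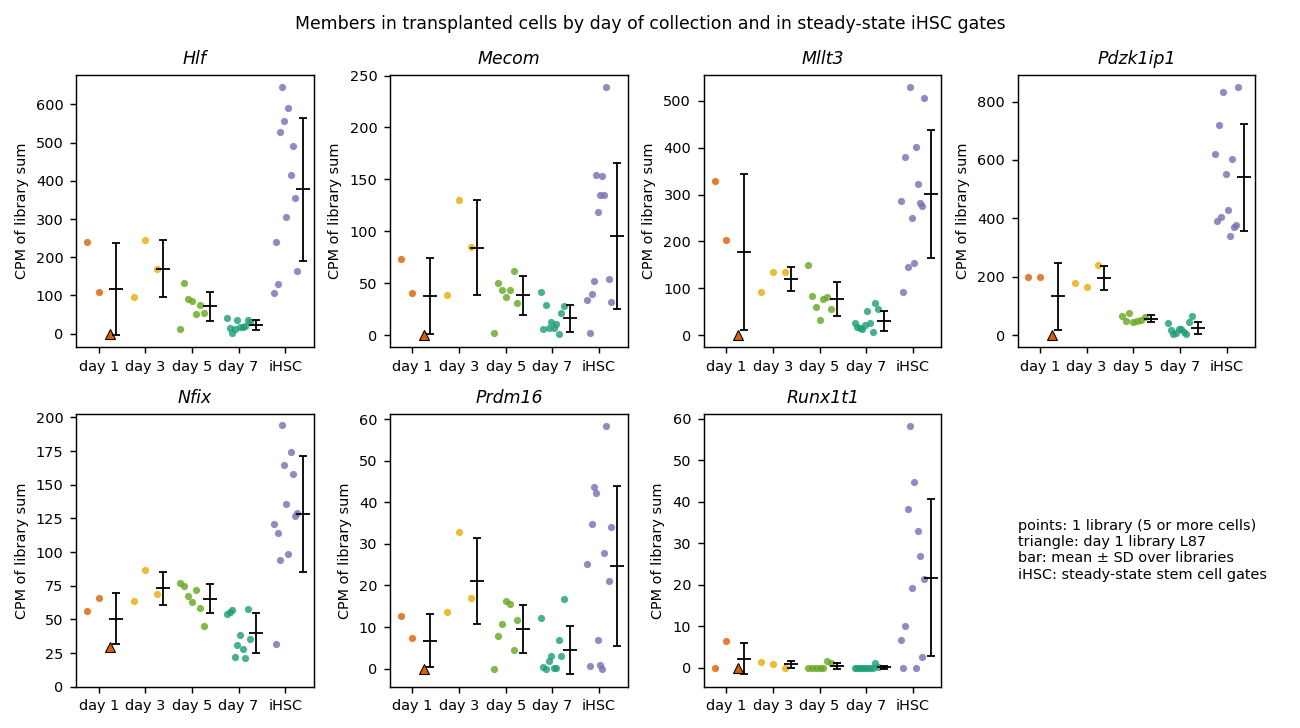
CPM of each library sum for the 7 members in transplanted cells on days 1, 3, 5 and 7 and in steady-state iHSC gates (points, with mean ± SD over libraries beside them). Of the members, Hlf, Mllt3 and Pdzk1ip1 had all 10 day 7 libraries below all 12 iHSC libraries, and the day 1 library L87 (triangle) was at 0 in 6 panels. The share of all genes separated in this way was not computed.

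Transplanted cells were set against iHSC libraries in 1 fit of 35 sums and 13353 genes, so the comparisons by day share the iHSC libraries. Libraries L49 and L55 supplied both day 7 and iHSC sums, which are not independent, and the edgeR fit did not take this into account. By day 7 all 7 members were lower than in iHSC cells, where 10.4% of genes were called lower and 20.8% in either direction. With the library as a block, limma voom also called all 7 on day 7, where it called 4075 of 13353 genes, 1599 lower and 2476 higher. On day 5, 5 of 7 were lower (3.29% of genes lower, 4.28% higher, 7.57% in all). On day 3 edgeR called 0 of the 7 (0.105% lower, 1.12% in all), with 4 at an unadjusted p under 0.05, 0 called by DESeq2 and 1 by limma voom, which was Pdzk1ip1 (adjusted p = 0.0179). Over all genes, 1359 of 13353 had an unadjusted p under 0.05 in edgeR on day 3. On day 1 only Nfix passed (0.801% lower, 3.14% in all). The median log2 fold change of the members was -1.89 for day 1, where that of all genes was -0.26. The corresponding pairs were -1.30 and -0.17 for day 3, -2.03 and -0.12 for day 5, and -3.27 and -0.10 for day 7. With RLE factors the median over all genes was -0.31 on day 7. The calls over all genes on day 7 were then 1921 lower and 1055 higher, against 1390 lower and 1394 higher with TMM factors, and on day 5 they were 582 lower and 471 higher, against 439 lower and 572 higher.

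Pdzk1ip1 gave the clearest separation by day. It had 200, 199 and 0 CPM in the day 1 libraries, 180, 164 and 241 CPM on day 3, 45.3 to 74 CPM (median 50.2) on day 5 and 2.34 to 64.7 CPM (median 19) on day 7. The iHSC libraries had 338 to 850 CPM. Each transplanted library of these days was below each iHSC library, a separation not computed for genes other than the members. The log2 fold change was -3.36 ± 0.55 on day 5 (adjusted p = 9.97e-05) and -4.51 ± 0.50 on day 7 (adjusted p = 6.42e-08). On day 1 (-2.26 ± 0.74, adjusted p = 0.0875) and day 3 (-1.66 ± 0.71, adjusted p = 0.383) it did not pass. The shares of cells with a count were, from day 1 through day 3 and day 5 to day 7, 51.3%, 78%, 42.1% and 16.5%, against 83.8% in iHSC libraries.

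Hlf, the marker of repopulating cells, had 241, 109 and 0 CPM on day 1, 95.9, 246 and 169 CPM on day 3, 12.1 to 133 CPM (median 74.4) on day 5 and 0.757 to 41.4 CPM (median 18.9) on day 7. On day 3, 1 of 3 libraries was below the iHSC range, on day 5, 6 of 7 were, and on day 7 all 10 were. The log2 fold change was -2.48 ± 0.53 on day 5 (adjusted p = 0.00249) and -3.95 ± 0.50 on day 7 (adjusted p = 5.64e-07). The share of cells was 77.3% on day 3, near the 75.9% of iHSC libraries, and 18.2% on day 7. Mllt3 had 329, 203 and 0 CPM on day 1, 91.1 to 135 CPM on day 3, 32.2 to 150 CPM (median 76.2) on day 5 and 7.32 to 67.7 CPM (median 23.8) on day 7. The iHSC libraries had 91 to 530 CPM, above 6 of 7 libraries of day 5 and all 10 of day 7. Mllt3 was lower on day 5 (log2 fold change -2.03 ± 0.49, adjusted p = 0.00693) and day 7 (-3.27 ± 0.45, adjusted p = 2.04e-06).

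Mecom and Prdm16, the PRDM pair, overlapped the iHSC libraries on every day, as Nfix and Runx1t1 did. Mecom had 72.8, 40.8 and 0 CPM on day 1, 38.2, 130 and 84.7 CPM on day 3, 1.85 to 62 CPM (median 43.1) on day 5 and 0.571 to 41.3 CPM (median 11.6) on day 7, and each day overlapped the 2.4 to 239 CPM of iHSC libraries. On day 3, 53.9% ± 8.1 of cells had a count (SD, n = 3), against 36.3% ± 18.1 of iHSC cells (SD, n = 12), a difference smaller than the SD of the iHSC libraries. Mecom passed on day 7 (-2.47 ± 0.58, adjusted p = 0.00212) and not on day 5 (-1.38 ± 0.63, adjusted p = 0.187). Prdm16 passed on day 7 (4.43 ± 5.82 CPM on day 7 and 24.6 ± 19.3 CPM in iHSC libraries, SD, n = 10 and 12, log2 fold change -2.36 ± 0.82, adjusted p = 0.0336) and on no earlier day. Its day 7 call was lost without library L49, whose label and annotation name different populations (adjusted p = 0.07), and with only the compared groups in the fit (adjusted p = 0.0558).

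Runx1t1 was rare in transplanted cells. Library levels were 0, 6.46 and 0 CPM on day 1, 0 to 1.48 CPM on day 3, 0 to 1.62 CPM on day 5 and 0 to 1.15 CPM on day 7, against 0 to 58.2 CPM in iHSC libraries. It was lower on day 5 (-5.64 ± 1.40, adjusted p = 0.00865) and day 7 (-7.14 ± 1.29, adjusted p = 0.000101). Nfix had the smallest day 7 difference, with 21.1 to 57.8 CPM (median 36.9) on that day, against 31.7 to 194 CPM in iHSC libraries (log2 fold change -1.62 ± 0.26, adjusted p = 1.87e-05). It was also lower on day 5 (-1.05 ± 0.29, adjusted p = 0.0189) and on day 1, when its libraries had 55.9, 66.1 and 29.5 CPM (-1.52 ± 0.42, adjusted p = 0.0328). The day 1 call was lost without the library of 55.9 CPM (L83, adjusted p = 0.122).

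The day 1 values depend on 1 library. L87, with 13 cells from bone marrow, had 0 counts of Hlf, Mecom, Mllt3, Pdzk1ip1, Prdm16 and Runx1t1. In it 8 of 9 neutrophil markers were detected at a summed 137231 CPM, against 6225 and 2410 CPM in the other day 1 libraries. Of the 5 stem cell markers, Procr, Fgd5 and Slamf1 were at 0 in L87, while Ctnnal1 and Esam had counts. These 5 markers summed to 29.5 to 419 CPM over the day 1 libraries. The predicted types of the L87 cells were tLym (lymphoid by name, 5 cells), tME (megakaryocyte-erythroid, 3), tGM (granulocyte-monocyte, 2) and tCP, tHSC and tMPP5 (1 each). The 9 monocyte and macrophage markers were above all iHSC libraries on both early days. They summed to 240 to 759 CPM (median 686) on day 1 (7 to 9 of 9 detected) and 145 to 516 CPM (median 196) on day 3 (8 to 9 of 9). The iHSC libraries had 1.2 to 83.1 CPM (median 34.9, 2 to 8 of 9). Late libraries reached such sums as well, with 28 to 1278 CPM (median 46.6) on day 5 and 5.29 to 557 CPM (median 78.3) on day 7. Their part in the early values was not tested. Without L87 no member passed on day 1 (Nfix -1.30 ± 0.48, adjusted p = 0.198; Pdzk1ip1 -1.69 ± 0.68, adjusted p = 0.28), and 229 genes were called in place of 419. The day 7 cells carried more neutrophil marker RNA as well, with 1336 to 35899 CPM (median 16828, 7 to 9 of 9 markers detected), against 388 to 27458 CPM (median 718) in iHSC libraries. Their part in the result was not tested. With transplanted cells of the predicted types tHSC and tMPP alone, all 7 members passed on day 7, Hlf at -3.69 ± 0.41 and Pdzk1ip1 at -4.26 ± 0.40. In that fit 3244 of 14005 genes were called on day 7, 1748 lower and 1496 higher.

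**Figure D3:**
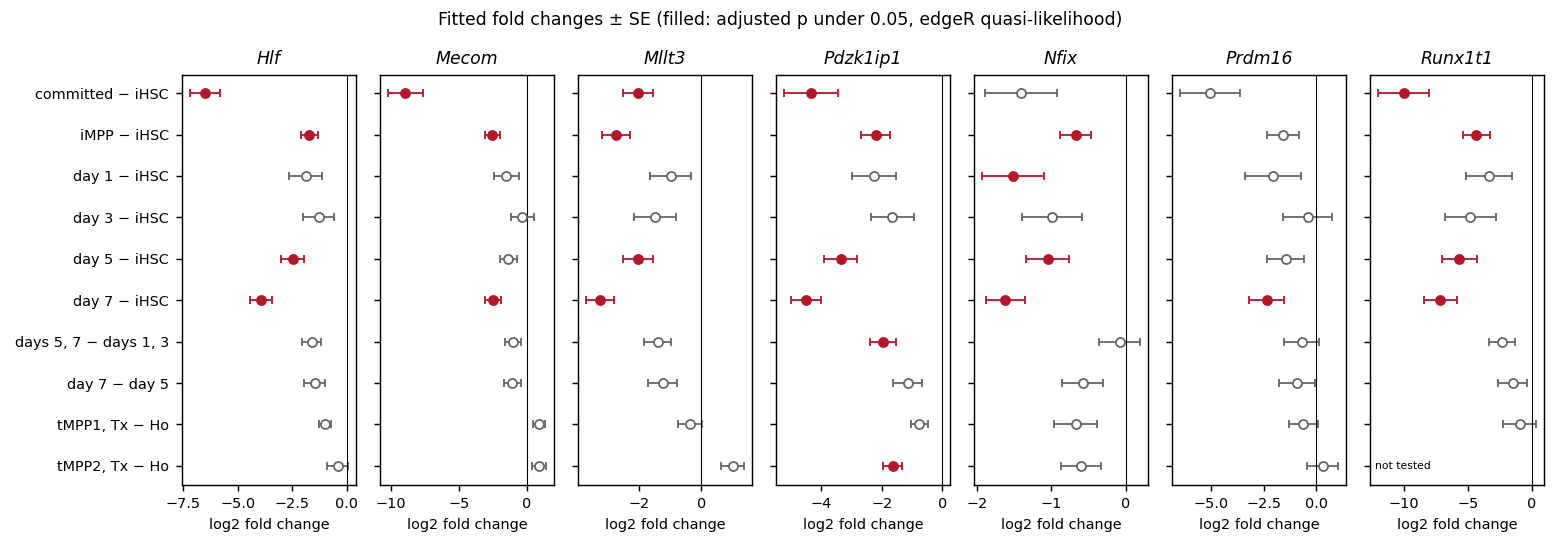
Fitted log2 fold changes ± SE of the 7 members in 10 comparisons, each with its first-named group over its second-named group (edgeR quasi-likelihood, filled red where the adjusted p was under 0.05). Tx is transplanted and Ho steady state, and the horizontal scale differs between panels. All 7 members were called on day 7 against iHSC and 1 of them between days 5 and 7 and days 1 and 3.

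Days 5 and 7 together were compared with days 1 and 3 in the same fit. Pdzk1ip1 alone was called, 1 of 7 members, and was lower late (log2 fold change -1.98 ± 0.43, adjusted p = 0.0144), where 0.554% of genes were called lower, 0.142% higher and 0.696% in all. This call did not hold when each sum needed 10 or more cells (adjusted p = 0.0698), or in limma voom with the library as a block (adjusted p = 0.135). Hlf (-1.62 ± 0.45, adjusted p = 0.0733) and Mllt3 (-1.41 ± 0.43, adjusted p = 0.11) did not pass with all libraries. Without L87 both did, Hlf at -1.90 ± 0.39 (adjusted p = 0.00644) and Mllt3 at -1.69 ± 0.34 (adjusted p = 0.00586). Nfix had a fitted value of -0.08 ± 0.28 (adjusted p = 0.958). With RLE factors the calls over all genes were 111 lower and 12 higher, against 74 lower and 19 higher with TMM factors. Most early libraries carry higher library numbers than most late ones, so a library effect and time cannot be fully told apart. Between day 7 and day 5 no member passed (edgeR, 0.157% of genes lower and 0.404% in all), with 4 of 7 at an unadjusted p under 0.05 and 0 called by DESeq2. limma voom also called 0. Over all genes, 1255 of 13353 had an unadjusted p under 0.05 in edgeR. The fitted values of the 7 were negative, from -0.58 for Nfix to -1.49 for Runx1t1, where the median over all genes was 0.01. Hlf, at -1.47 ± 0.49 (adjusted p = 0.176), had 0.757 to 41.4 CPM on day 7 and 12.1 to 133 CPM on day 5.

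**Figure D4:**
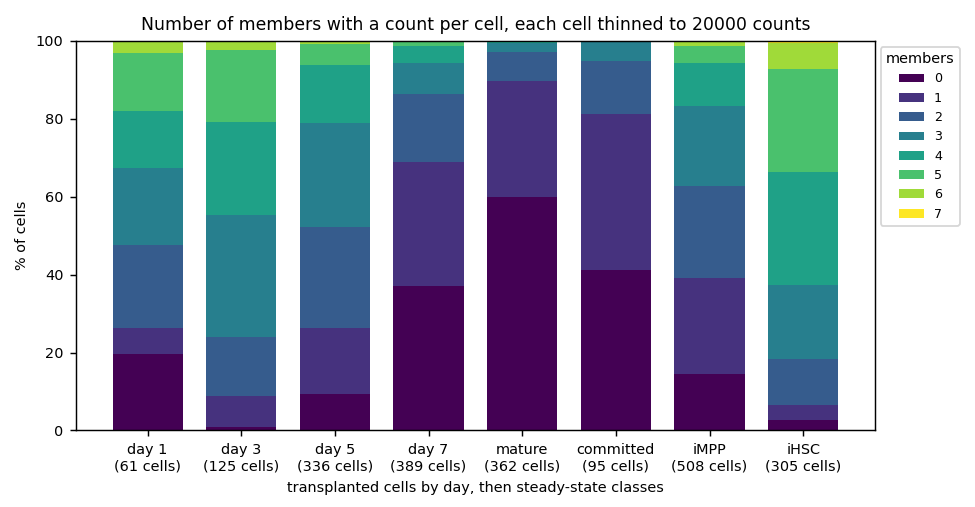
Share of cells (percent, stacked to 100) by the number of the 7 members with a count, after each cell was thinned to 20000 counts, in transplanted cells by day and in steady-state classes. Cells with none of the members made up 0.8% on day 3, 37% on day 7, 59.9% in mature cells and 2.62% in iHSC cells.

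The members were also counted cell by cell after thinning. Transplanted libraries had a mean of 2.26 ± 1.89 members with a count per cell on day 1 (SD, n = 3, with 0.0769 in L87), 3.34 ± 0.138 members per cell on day 3 (n = 3), 2.32 ± 0.328 members per cell on day 5 (n = 7), and by day 7 the mean was 1.18 ± 0.328 (n = 10). The mean was 0.594 ± 0.461 in mature (n = 12), 0.86 ± 0.382 in committed (n = 4), 2.08 ± 0.931 in iMPP (n = 17) and 3.49 ± 0.641 in iHSC libraries (n = 12). On day 7, 144 of 389 cells had none of the members and 22 had 4 or more, against 8 of 305 iHSC cells with none and 191 with 4 or more. After thinning, all 7 were seen in 2 cells of the iHSC gates and in no cell of the other groups. Without thinning, all 7 were seen in 11 iHSC, 7 iMPP, 2 day 5 and 2 day 7 cells. These shares cover cells and not replicates, and no test was made on them. In iHSC cells, a count of one member came with a higher share for the other in each pair but Prdm16 with Runx1t1. Mllt3 had a count in 87% of the 123 cells with Mecom and in 68.7% of the cells without it, and Nfix in 70.7% of the 242 cells with Hlf and in 41.3% of the cells without it. Prdm16 and Hlf showed almost no such difference (20.2% of cells with Hlf and 19% of cells without it). These pairs share cells, libraries and capture efficiency.

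The study's annotation gave each cell a predicted type. In steady state, the type tHSC held exactly the iHSC cells and tCP the committed cells, so those levels repeat the gates. Only 33 transplanted cells were called tHSC, and 1 library had at least 5 of them, so their values are pooled. The 12 tHSC cells of day 3 had 237 CPM of Hlf, 182 CPM of Mecom and 579 CPM of Pdzk1ip1. The 4 of day 7, all of 1 library, had 432 CPM of Mllt3 and 0 of 387016 counts for Hlf and for Pdzk1ip1. The type tMPP2 held the most transplanted cells, 348. In it the Hlf level was 111 CPM on day 1 (1 library), 119 ± 36 CPM on day 3 (SD, n = 3), 62.3 ± 29.2 CPM on day 5 (n = 6) and 12.9 ± 5.6 CPM on day 7 (n = 5). Pdzk1ip1 in tMPP2 was at 132 CPM, 123 ± 27.4 CPM, 38.3 ± 6.63 CPM and 31.6 ± 14.8 CPM on the same days. In tMPP1, Hlf was at 283 ± 177 CPM on day 3 (n = 3) and 147 ± 48.5 CPM on day 5 (n = 6). In tMPP5, the Hlf level was 120 ± 74.2 CPM on day 5 (n = 6) and 60.3 ± 23.2 CPM on day 7 (n = 4). Other pooled levels were higher on day 7 than on day 5. In tMPP4, Hlf was at 40.7, 37, 43.9 and 75.5 CPM over the 4 days (3, 4, 12 and 23 cells), and Pdzk1ip1 at 150, 165, 29.8 and 94.9 CPM. In tMPP1, Pdzk1ip1 was at 249 CPM on day 7 (16 cells) and 150 CPM on day 5 (66 cells), and Mllt3 at 270 CPM on day 7 and 116 CPM on day 5. In tMPP5, Mecom was at 43 CPM on day 7 (58 cells) and 23.8 CPM on day 5 (74 cells). The types tGM and tME, granulocyte-monocyte and megakaryocyte-erythroid by name, had 1.13 and 0.977 CPM of Hlf on day 7 (56 and 27 cells, pooled). The prediction used expression, so these levels are a description.

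**Figure D5:**
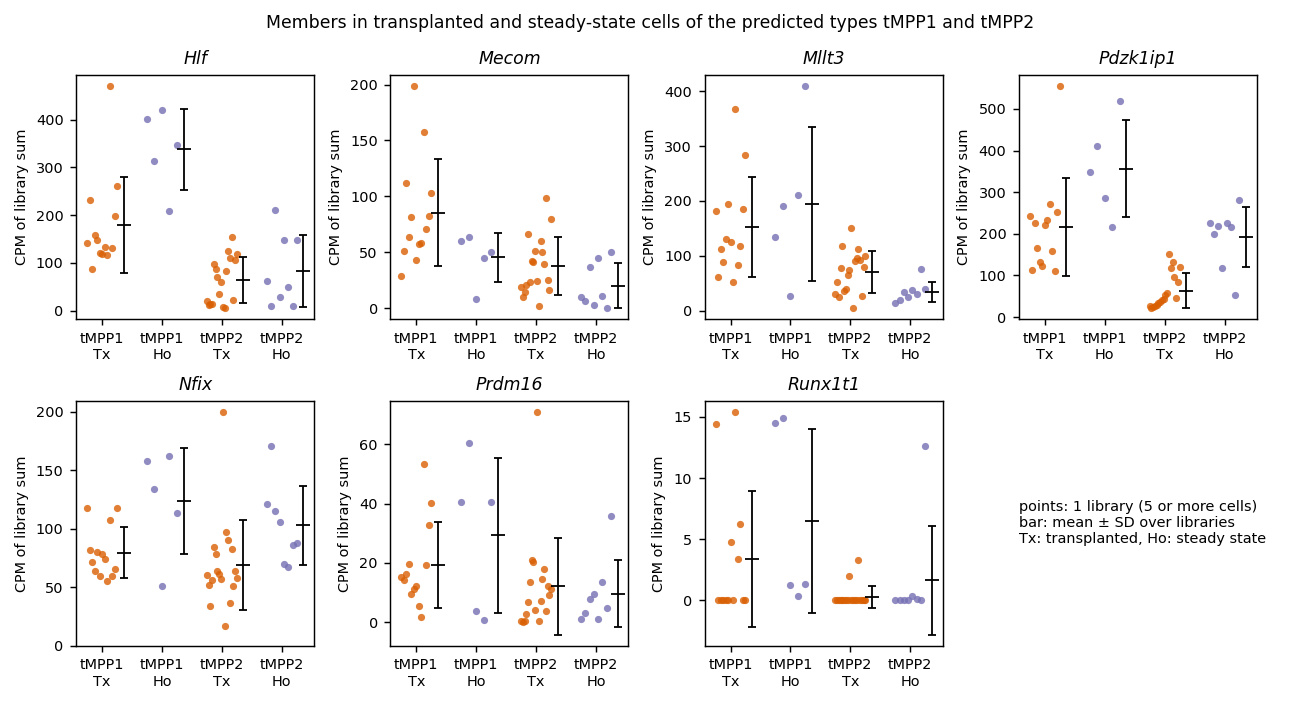
CPM of each library sum of the 7 members in transplanted (Tx, orange) and steady-state (Ho, purple) cells of the predicted types tMPP1 and tMPP2, with mean ± SD over libraries. In tMPP2, Pdzk1ip1 was at 63.6 CPM in transplanted and 193 CPM in steady-state libraries on average.

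Within a predicted type, transplanted and steady-state cells were compared over libraries, those of pooled days included. In tMPP2, Pdzk1ip1 was lower in transplanted cells, 1 of 6 members tested, where 0.311% of 10604 genes were called lower and 0.707% in all. It had 22.4 to 152 CPM (median 44.8) in 18 transplanted libraries and 54.2 to 282 CPM (median 218) in 8 steady-state libraries. The ranges overlapped, with 11 transplanted libraries below the lowest steady-state library (log2 fold change -1.65 ± 0.31, adjusted p = 0.00575). It was called under each of the 6 other settings tried (adjusted p = 1.95e-05 to 0.0402). The share of tMPP2 cells with a count was 39.6% ± 22.4 in transplanted and 69.4% ± 20.6 in steady-state libraries. The other members of tMPP2 did not pass. Mllt3 had 70.6 ± 38.7 CPM in transplanted and 34.5 ± 18.5 CPM in steady-state libraries (log2 fold change 1.01 ± 0.37, adjusted p = 0.242), and Mecom 38.1 ± 26 CPM in transplanted and 20.3 ± 20.3 CPM in steady-state libraries (0.90 ± 0.53, adjusted p = 0.57). Runx1t1 was too low to be tested. In tMPP1 no member passed (edgeR, 0.494% of 10326 genes did, 0.271% higher), with 4 of 7 at an unadjusted p under 0.05, 0 called by DESeq2 and 2, Hlf and Pdzk1ip1, by limma voom. Over all genes, 1057 of 10326 had an unadjusted p under 0.05 in edgeR. Hlf had 88 to 471 CPM (median 142) in 13 transplanted libraries and 208 to 420 CPM (median 346) in 5 steady-state libraries, 10 of the 13 below all 5 (log2 fold change -0.99 ± 0.28, adjusted p = 0.121). Mecom had 85.4 ± 47.9 CPM in transplanted and 45.7 ± 22 CPM in steady-state tMPP1 libraries (0.88 ± 0.43, adjusted p = 0.472). Whether the differences of tMPP1 and tMPP2 are unequal was not tested.

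Relatives and partners of the members were read from a list of 29 genes. It held PAR bZIP, PRDM, nuclear factor I and ETO family genes and proteins that work with Mllt3 (the elongation complex, Dot1l, Kmt2a). In iMPP against iHSC cells 1 of 26 tested was lower and none higher, where 4.72% of all genes were lower. This was Kmt2a, a histone methyltransferase needed by stem cells (-1.21 ± 0.29, adjusted p = 0.0049), with a list median of -0.58. In committed against iHSC cells it was Nfic alone (-2.35 ± 0.63, adjusted p = 0.0409, with 1.89% of all genes lower), a call lost without L49 or without the committed cells of L15, L17 or L43. On day 7, 5 of 29 were lower and none higher (list median -0.76, with 10.4% of all genes lower), led by Kmt2a (-1.65 ± 0.29, adjusted p = 6.42e-05), Prdm1 (-6.76 ± 1.64, adjusted p = 0.00269) and Cbfa2t3, a paralogue of Runx1t1 (-1.44 ± 0.36, adjusted p = 0.00316). On day 5, 2 of 29 were lower, Prdm1 and Kmt2a, where 3.29% of all genes were. The Prdm1 call was lost on both days with at least 10 cells per sum, with limma voom and with only the compared groups in the fit, and on day 5 also with DESeq2. On day 1 Nfib, a nuclear factor I relative of Nfix, was the single gene of the list called and was higher (6.21 ± 1.58, adjusted p = 0.0193, with 2.34% of all genes higher). It was not called with at least 10 cells per sum (adjusted p = 0.0501) or with tHSC and tMPP cells alone (0.075). In the other comparisons edgeR called 0. The number at an unadjusted p under 0.05 was 2 of 29 on day 3, 1 of 29 between late and early days, 0 of 29 between days 7 and 5, 1 of 26 in tMPP1, 3 of 26 in tMPP2 and 2 of 28 between the iHSC gates. Over all genes it was 1359 of 13353 on day 3, 1640 of 13353 between late and early days and 1255 of 13353 between days 7 and 5. In tMPP1 it was 1057 of 10326, in tMPP2 1171 of 10604 and between the iHSC gates 814 of 11908. DESeq2 called Kmt2a on day 3 and Cbfa2t3 in tMPP2, and limma voom called Cbfa2t3 and Kmt2a in tMPP2. Between the iMPP gates, 3 of 27 differed (Kmt2a, Cbfa2t3 and Ncor1), where 4.46% of all genes did.

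A second list held 32 other transcription factors of stem cells. In iMPP against iHSC cells 4 of 31 were lower and none higher (list median -0.57), beside the 4.72% of all genes. They were Egr1, an immediate early gene (-2.66 ± 0.46, adjusted p = 0.000132), Lmo2, the adaptor of the Tal1 complex (-1.04 ± 0.22, adjusted p = 0.00147), Meis1, a Hox cofactor (-1.15 ± 0.30, adjusted p = 0.00982), and Myct1 (-1.32 ± 0.37, adjusted p = 0.0188). In committed against iHSC cells 7 of 32 were lower and none higher, beside 1.89% of all genes, led by Myct1 (-7.04 ± 0.68, adjusted p = 4e-07), Lmo2 and Hoxa5. On day 7, 11 of 32 were lower and none higher (list median -0.85, with 10.4% of all genes lower), led by Egr1 (-3.55 ± 0.47, adjusted p = 9.57e-07), Lmo2 (-1.64 ± 0.24, adjusted p = 4.84e-06) and Meis1 (-1.75 ± 0.30, adjusted p = 4.8e-05). On day 5, 4 of 32 were lower, led by Lmo2, Egr1 and Runx1, where 3.29% of all genes were. On day 1 Lmo2 alone was lower (-1.82 ± 0.40, adjusted p = 0.00553, with 0.801% of all genes lower), a call lost without L87. In tMPP2, 2 of 32 were lower in transplanted cells, among them Fli1, an ETS factor (-0.92 ± 0.21, adjusted p = 0.028), where 0.311% of all genes were lower. In tMPP1, 1 of 31 was lower, Myct1 (-1.04 ± 0.25, adjusted p = 0.0499), where 0.223% of all genes were. The tMPP2 calls did not hold for sums of 10 or more cells, nor did that of tMPP1, which was also lost without L49. Between the iMPP gates 11 of 32 differed, Gata2 and Meis1 among them, where 4.46% of all genes did. In the other comparisons edgeR called 0 of 32, with 3 at an unadjusted p under 0.05 on day 3, 3 between late and early days, 6 between days 7 and 5 and 3 between the iHSC gates. Over all genes these numbers were 1359, 1640 and 1255 of 13353, and 814 of 11908 between the iHSC gates. DESeq2 and limma voom called Egr1 on day 3, limma voom called Egr1 and Meis1 between days 7 and 5, and DESeq2 called Ikzf1 between the iHSC gates.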

How the data were processed

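Single-cell 3′ mRNA libraries had been read out as counts per gene and cell. The deposited values were whole-number counts, made by the authors with TopHat and HTSeq on mm10 per the submitters' processing notes, with versions and strand setting not given in the sources used here. Of 2879 cells, 2301 had the authors' deposited annotation of origin, gate or day and predicted type, and 578 without it entered no comparison. Of the count table's columns, 0 could not be mapped to a library.

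Counts were summed per library and group where at least 5 cells were present. edgeR 4.0.16 (quasi-likelihood, TMM factors, R 4.3.3) tested each comparison on all genes kept by its filter on low counts, with Benjamini-Hochberg adjustment over all of them and a threshold of 0.05. The standard error is the fold change divided by the root of F. Levels are CPM of library sums, with SD over libraries. Shares of cells were taken after thinning to 20000 counts. Floors of 3 counts cover counting error only. Likeness between genes was Pearson's r over 28 gate means with a pseudocount of 1 CPM, and the 3 most alike were listed. The count model was checked on simulated data. Alternatives were DESeq2 1.42.0, limma 3.58.1 voom, RLE factors, no filter, at least 10 cells, other cells or groups in the fit, left-out libraries and the library as a block. Python 3.11.15, numpy 2.4.6, pandas 2.3.3, scipy 1.17.1 and matplotlib 3.10.9 were used.

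The members, gene lists and comparisons were chosen with earlier results of these data known. Every member was named, and of the lists called genes, and a few list genes are not reported here. Replicates were libraries numbered in accession order. The 3 libraries of pooled days entered only the comparisons within a predicted type.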

Additional observations from a re-analysis of the deposited data

Results flagged for a closer look

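In 42 groups of 4 to 10 libraries, the highest or lowest library was compared with the spread of the rest, and 8 groups held a library that stood apart. For normally distributed values the cut-off gives about 1 in 20. Levels near 0 are not so distributed and the groups share libraries, so no conclusion was drawn from the number of groups. Nfix was at 94.6 CPM in L43 among the committed libraries (7 cells), against 27.4 to 32.2 CPM in the others. Runx1t1 was at 1.15 CPM in L63 on day 7 (45 cells), against 0 to 0.0801 CPM in the other libraries of that day. In the gate Fraction III, Hlf was at 1380 CPM in L50 (6 cells; 287 to 591 CPM elsewhere), Mllt3 at 402 CPM in L55 (5 cells; 116 to 154 CPM elsewhere) and Prdm16 at 43.7 CPM in L49 (12 cells; 0 to 6.56 CPM elsewhere). In steady-state tMPP2, Mllt3 was at 75.2 CPM in L52 (14 cells), against 14.4 to 38.9 CPM in the other libraries. In the same type, L74 (9 cells) had 35.8 CPM of Prdm16, against 1.2 to 13.6 CPM, and 12.6 CPM of Runx1t1, against 0 to 0.399 CPM.

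The members were also counted in the 578 cells without annotation, which no comparison used. Of these, 392 had under 20000 counts, and the median was 11102. Hlf was at 37.9, Mecom at 10.6, Mllt3 at 51.1, Pdzk1ip1 at 62.1, Nfix at 49.8, Prdm16 at 2.13 and Runx1t1 at 0.476 CPM of their summed counts, above the 0.0181 CPM of 3 counts.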

How the results depend on the processing

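Of 705 fold changes of members under other settings, 656 kept direction and side of the threshold, 21 lost the call, 25 gained it and 3 changed sign. Those were Prdm16 on day 3 with limma voom (0.04), Prdm16 in tMPP2 with limma voom (-0.38) and Runx1t1 between late and early days without L84 (1.25), and none was called. The last ranged from -2.65 to 1.25 with 1 of the 6 libraries of days 1 and 3 left out. Members called on day 1 (1 here) were 3 with DESeq2, 2 without a filter, 0 with limma voom, with only the compared groups or with tHSC and tMPP cells only, and 0 to 1 with a library left out. On day 3 (0 here) limma voom called 1. Between late and early days (1 here) the count was 2 with RLE or DESeq2, 3 without a filter or with tHSC and tMPP cells only, 0 with limma voom or at least 10 cells, and 1 to 3 with a library left out. DESeq2 called 5 between the iMPP gates (3 here), and limma voom 2 in tMPP1 (0 here).

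Counts over all genes moved more. With DESeq2 they were 1582 for iMPP (1022 here), 961 for committed (308), 62 between iHSC gates (7), 1441 between iMPP gates (563), 685 on day 1 (419), 268 on day 3 (149), 1582 on day 5 (1011), 140 between days 7 and 5 (54), 179 in tMPP1 (51) and 303 in tMPP2 (75). Without a filter they were 2254 for iMPP, 586 for committed, 218 between iHSC gates, 1541 between iMPP gates, 1002 on day 1, 481 between late and early days (93), 86 between days 7 and 5, 130 in tMPP1 and 258 in tMPP2. With at least 10 cells they were 476 for committed, 3 between iHSC gates, 1061 between iMPP gates, 210 between days 7 and 5 and 31 in tMPP1. With limma voom they were 103 on day 1, 314 on day 3, 2200 on day 5, 194 between late and early days, 515 between days 7 and 5, 309 in tMPP1 and 268 in tMPP2. With only the compared groups they were 23 on day 1, 15 on day 3, 564 on day 5, 1592 on day 7 (2784), 387 between late and early days and 99 between days 7 and 5. With tHSC and tMPP cells only they were 222 on day 1, 227 between late and early days and 13 between days 7 and 5. Leaving out a library gave 158 to 268 for committed, 229 to 638 on day 1, 25 to 95 on day 3 and 80 to 195 between late and early days. Without L49, 45 genes differed between iHSC gates. The causes were not tested.

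The settings without L49, L4 or Fraction II and the library block were chosen after seeing the data. Replicate numbers were given in accession order and pair no libraries. With the library as a replicate block over the 5 libraries that held both iMPP and iHSC cells (10 of 29 sums), 119 genes and 1 member were called between iMPP and iHSC, against 1022 genes and 6 members with all sums. Without L4 they were 914 genes and 5 members. limma voom with the library as a block could not be fitted for the committed comparison and was not run there. In tMPP1 and tMPP2 it had no block. Few libraries of days 1 and 3, sums of 5 or more cells and the low counts of Prdm16 and Runx1t1 limit the precision. Shares without thinning moved by more than 1 SD for 87 of 126 values, and with a second random draw 19 of 126 did.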
